A study of Mus musculus with 2 samples.

Results

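The AP-1 transcription factor genes Fos, Fosb, Fosl1, Fosl2, Jun, Junb, Jund, Batf, Batf3 and Atf3 were examined in dendritic cells with and without the microRNA miR-155. They are 10 of the 18193 genes that a probe set of the array names alone, and they were chosen by gene symbol. The 10 genes had 14 probe sets, 1 each for 6 genes and 2 each for Fosl1, Fosl2, Jun and Jund. The study compared a wild type + LPS sample with a miR155-/- + LPS sample, each of C57BL/6 mice and each measured on 1 Affymetrix array. In both, bone marrow was cultured for 7 days with GM-CSF at 20 ng/ml, a cytokine that drives marrow progenitors toward dendritic cells and macrophages, and then given lipopolysaccharide (LPS, the bacterial cell wall component sensed by TLR4) at 10 ng/ml. No untreated cells were measured, so the response of these genes to LPS itself is not shown. The sources used here do not state how long LPS was given or how many mice each sample came from.

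AP-1 is a set of dimers made by proteins with a basic region and a leucine zipper (bZIP). Fos proteins must pair with a Jun protein to bind DNA, whereas Jun proteins also pair with one another. Batf and Batf3 pair with Jun proteins and bind DNA together with the interferon regulatory factors Irf4 and Irf8. Atf3 binds related sites and restrains inflammatory transcription downstream of TLR4. In myeloid cells the Fos and Jun genes are immediate early genes, switched on by MAP kinases within minutes of a stimulus and then shut off. Batf3 is required for the cross-presenting lineage of dendritic cells. Fos is a reported direct target of miR-155, and its silencing has been linked to dendritic cell maturation.

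The mature RNAs of the deleted locus are shown because pairing of the seed, bases 2 to 8, with a messenger RNA is used to predict miR-155 targets. The sequences are those of RefSeq on build GRCm38.p6, with the seed in capitals, and they lie at chr16:84714143-84714165 and chr16:84714182-84714202 on the plus strand.
mmu-miR-155-5p: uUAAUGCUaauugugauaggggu
mmu-miR-155-3p: cUCCUACCuguuagcauuaac
Target sites in the Fos messenger were not examined here. The host transcript Mir155hg went from a deposited intensity of 922 (wild type) to 192 (knockout), and after normalization it was 7.13-fold lower in the knockout, the direction of the labels. The position of its probe set relative to the deletion is not known here.

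Many AP-1 genes are themselves regulated through AP-1 or cyclic AMP response elements near their start sites, so RefSeq's promoter windows (250 bases before to 50 after the start, build GRCm38.p6) were searched on both strands. RefSeq windows were matched for 9 of the 10 genes; Fosl1 was not matched. The first motif was TGANTCA, which is the classical AP-1 element where N is C or G and a variant of it where N is A or T. The second was TGACNTCA (the cyclic AMP response element and variants with another central letter). The third was TGACGT (6 letters of that element, which overlap TGACNTCA where N is G). In this order the motifs occur in 7.81%, 8.83% and 7.51% of all 32851 windows. TGANTCA was in 0 of the 9 windows, TGACNTCA in 1 and TGACGT in 3. The windows with a match are printed with the matched letters in capitals. They lie at chr12:85473640-85473939 on the plus strand (Fos), chr4:95052173-95052472 on the minus strand (Jun), chr12:85686470-85686769 on the plus strand (Batf) and chr1:191183284-191183583 on the minus strand (Atf3).
Fos: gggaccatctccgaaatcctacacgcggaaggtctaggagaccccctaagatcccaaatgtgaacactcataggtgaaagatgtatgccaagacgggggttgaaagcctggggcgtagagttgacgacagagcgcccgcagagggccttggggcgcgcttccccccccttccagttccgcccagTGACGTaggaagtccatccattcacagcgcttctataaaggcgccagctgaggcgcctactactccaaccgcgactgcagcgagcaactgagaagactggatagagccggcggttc
Jun: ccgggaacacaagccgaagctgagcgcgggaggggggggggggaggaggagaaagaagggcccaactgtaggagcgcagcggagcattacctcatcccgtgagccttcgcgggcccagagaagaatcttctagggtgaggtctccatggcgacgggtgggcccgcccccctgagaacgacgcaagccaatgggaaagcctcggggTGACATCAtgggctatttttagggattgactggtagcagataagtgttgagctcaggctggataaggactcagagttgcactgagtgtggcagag
Batf: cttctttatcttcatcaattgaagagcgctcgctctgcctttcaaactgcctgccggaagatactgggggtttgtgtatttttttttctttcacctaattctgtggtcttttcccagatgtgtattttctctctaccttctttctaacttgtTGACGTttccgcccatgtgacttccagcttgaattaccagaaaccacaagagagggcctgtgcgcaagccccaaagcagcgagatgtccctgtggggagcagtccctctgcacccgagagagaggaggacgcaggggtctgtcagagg
Atf3: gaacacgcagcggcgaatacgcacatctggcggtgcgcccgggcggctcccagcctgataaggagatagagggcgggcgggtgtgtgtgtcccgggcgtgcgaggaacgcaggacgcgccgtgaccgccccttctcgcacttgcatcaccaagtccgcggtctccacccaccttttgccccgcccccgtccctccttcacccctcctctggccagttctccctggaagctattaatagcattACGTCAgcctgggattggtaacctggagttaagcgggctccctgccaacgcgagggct
The Fos match begins 66 bases before the start site, the Batf match 98 bases before it and the Atf3 match, on the opposite strand, 8 bases before it. In Jun the letters TGACATCA begin 45 bases before the start. These are matches of letters and not measured binding.

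The arrays differed in overall brightness. The knockout array was brighter, with a median deposited intensity of 78.3 against 58.4, and the deposited log2 signal was 0.50 higher in the knockout at the median probe set. Log2 intensities were therefore quantile normalized, which makes both distributions equal, so a difference is relative to the bulk of genes. Of all named genes, 11878 were measured, meaning that at least 1 array lay above an intensity floor of 67.6, the median of all normalized values. A spread between replicates and a p-value cannot be had from 1 array per genotype. The only error available is the disagreement among probe sets that share a gene, with an SD of 0.29 on the log2 scale (11653 probe sets of 4410 genes), which holds no variation between mice or cultures. RNA control probe sets also differed: deposited signals for 18S ribosomal RNA were 95.1 to 126.1 in wild-type and 389.2 to 581.9 in knockout cells, and their part in the results was not tested. The dendritic cell marker Itgax (CD11c) had normalized intensities of 4290 and 5331, but the macrophage genes Csf1r (9826 and 11268) and Adgre1 (7458 and 8568) also lay far above the floor, and Xcr1, which marks the Batf3-dependent lineage, lay below it on both arrays. Of 15 measured dendritic cell markers 6 were higher and 9 lower in the knockout (median -0.05), with Irf8 at -0.66, Ccr7 at -0.55 and Naaa at 0.84. Of 12 macrophage markers 8 were higher and 4 lower (median 0.15). Mrc1 was 2.08-fold, Ccr2 1.78-fold (3 of 4 probe sets) and Mertk 1.75-fold higher, and Maf (-0.53, 1 of 2 probe sets) and Cd14 (-0.43) were lower. Of all measured genes 51.5% were higher and 48.5% lower. Flt3 among the dendritic cell markers and Apoe among the macrophage markers exceeded the floor in the knockout alone, which fixed their direction.

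AP-1 transcripts differed little between the genotypes and in no common direction. Of the 10 genes, 9 were measured, and 4 of these were higher and 5 lower in knockout cells. Among all measured genes 51.5% were higher and 48.5% lower. The median difference (knockout minus wild type, log2) was -0.02 over the 9 genes and 0.01 over all measured genes. None of the 9 reached 1.5-fold, although Fosl1 is known only as a lower bound. Of all measured genes 8.67% reached 1.5-fold, and 2-fold was reached by 1.19% (0.572% higher and 0.615% lower). In the deposited values, by contrast, 9 of the 9 were higher in the knockout, as were 91.1% of all measured genes. The SD between probe sets was exceeded by 3 of the 9, Junb, Jund and Batf, and by 32.7% of all measured genes. These shares are near those of all measured genes or below them. How many genes as bright as the members exceeded the SD between probe sets was not computed. In the 3959 brightest measured genes, which hold 8 of the members, the differences had an SD of 0.26, and 3.64% reached 1.5-fold.

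**Figure D1:**
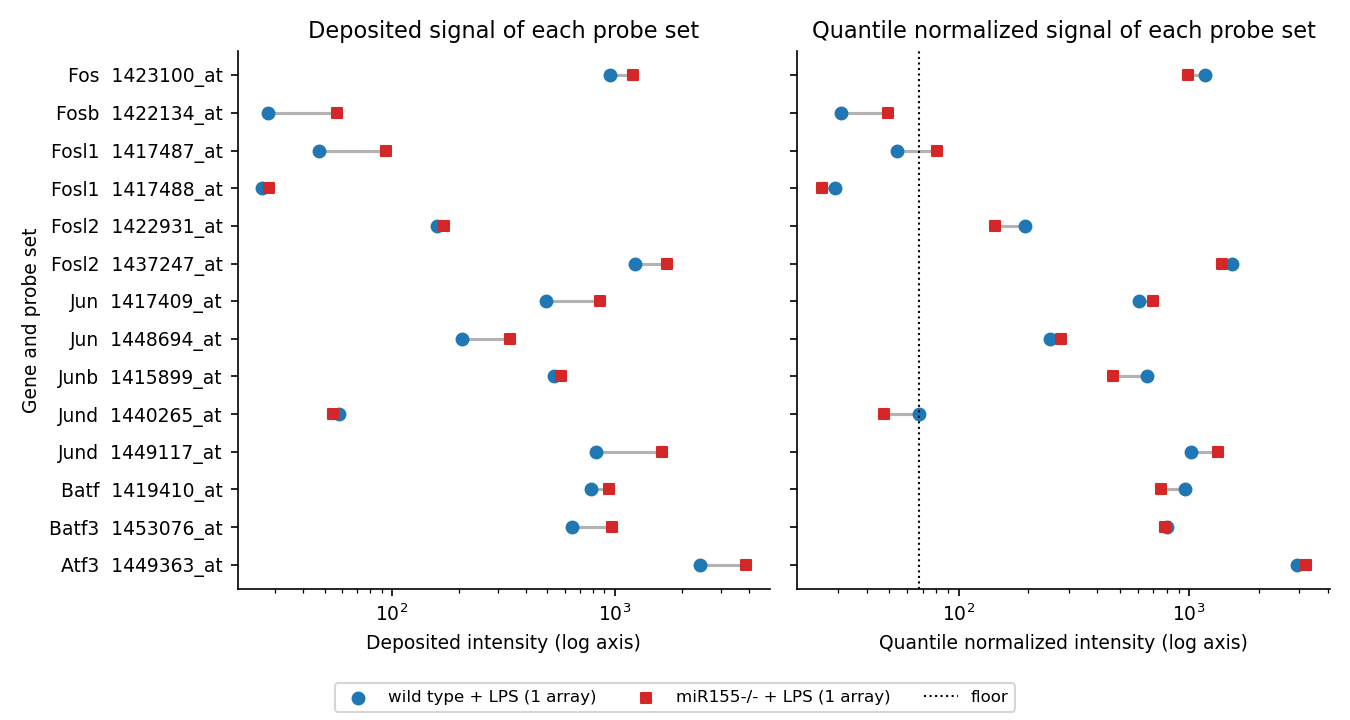
Intensity of each AP-1 probe set (rows) in wild-type (circles) and knockout cells (squares), as deposited (left) and after quantile normalization (right), on log axes; the dotted line is the floor of 67.6. In the deposited values 13 of the 14 probe sets are brighter in the knockout, and after normalization the genotypes lie on either side of each other.

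Fos itself was slightly lower in knockout cells relative to other genes. Its single probe set, 1423100_at, gave deposited intensities of 952 (wild type) and 1216 (knockout). After normalization these were 1174 and 988, a difference of -0.25 (1.19-fold lower), which is within the probe set SD of 0.29. The sign depended on the scaling: Fos was higher in the knockout by 0.35 in the deposited values and by 0.03 when arrays were scaled on hybridisation controls, and lower by -0.07 when they were centred on their medians. Set against the median gene, Fos lay at -0.26 after quantile normalization and at -0.18 in the deposited values. Loess gave a difference of -0.24. The other ways of processing add no separate check for genes with 1 bright probe set, since the choice of floor or probe set cannot move their values, and centring and scaling on controls shift an array's signals by a constant. Of the measured genes, 19.0% had a lower difference than Fos. A value within the probe set SD on 1 array pair does not show that Fos was unchanged.

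The other Fos family genes lay near the floor or differed little. Fosl2, which encodes the long-lived family member Fra-2, had normalized intensities of 1528 and 1395 at 1437247_at (-0.13) and of 193 and 144 at 1422931_at (-0.42). Both probe sets were lower, and the latter was beyond the probe set SD; the deposited values were higher in the knockout at both, 1235 against 1717 and 160 against 172. Fosl1, which encodes Fra-1, a protein without the activation domain of Fos, had 54.3 and 80.5 at 1417487_at. Since only the knockout lay above the floor, it was at least 1.19-fold higher, and its other probe set lay below the floor on both arrays (29.0 and 25.5). Fosb, an immediate early partner of the Jun proteins, was not measured: its normalized intensities of 30.9 and 49.5 were below the floor on both arrays.

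The Jun family diverged within itself. Jund, the Jun protein most often present in resting cells, gave deposited intensities of 826 (wild type) and 1641 (knockout) at 1449117_at. The normalized values were 1019 and 1333, a difference of 0.39 (1.31-fold higher), the highest among the 8 members that exceeded the floor in both genotypes. Its second probe set, 1440265_at, lay at or below the floor on both arrays (67.2 and 47.7) and gives no difference. Junb, which can oppose Jun at shared sites and is also induced by LPS, had deposited intensities of 533 and 576 and normalized intensities of 660 and 469. Its difference of -0.49 (1.41-fold lower) was the lowest of the 9, and 6.30% of measured genes had a lower one. Junb has 1 probe set, so no second reading of this value exists.

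Jun, the founding partner of Fos, was higher at both of its probe sets. The normalized intensity went from 605 in wild-type to 696 in knockout cells at 1417409_at (0.20) and from 250 to 279 at 1448694_at (0.15), both within the probe set SD. The deposited intensities were 490 and 862, and 206 and 340. Beside Jun, the noncoding gene Junos starts 95 bases away on the opposite strand and runs away from it; the spans of the pair do not overlap in RefSeq's annotation. Its single probe set, 1456929_at, had deposited intensities of 52.4 and 363 and normalized intensities of 60.6 and 298. It was at least 4.40-fold higher in the knockout, since wild-type cells lay below the floor. Whether this probe set also detects transcripts of the other strand was not tested.

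The Batf genes were near the median gene or below it. Batf, which restrains Fos by competing for Jun and acts with Irf4, had deposited intensities of 782 and 945 and normalized intensities of 962 and 758 at 1419410_at. The difference of -0.34 (1.27-fold lower) was beyond the probe set SD. Batf3 had normalized intensities of 798 and 786 at 1453076_at, a difference of -0.02, although its deposited signal went from 644 to 974. Set against the median gene, Batf lay at -0.35 after quantile normalization and -0.26 in the deposited values, and Batf3 at -0.03 and 0.06. Since the samples are bulk cultures, fewer cells of a type and less RNA per cell cannot be told apart. Batf is also expressed in lymphocytes, and markers of B and plasma cells were lower in the knockout in 7 of 7 measured genes (48.5% of all measured genes were lower). Only 3 of the 7 exceeded the floor on both arrays: Ighm (lower at 5 of 8 probe sets), Igha (3 of 3) and Jchain (1 probe set). The others were measured through the wild type alone, which fixed their direction. The summed normalized intensity of the 7 was 2158 against at most 670, with signals under the floor set to it. Cd79a, Pax5 and Ebf1 lay below the floor on both arrays. Of 4 measured T and NK cell markers 3 were higher (51.5% of all measured genes), with a median of 0.20. Zap70 (at least 4.68-fold higher) and Cd4 exceeded the floor in the knockout alone, which fixed their direction. Of the 2 above the floor on both arrays, Cd8a was higher at 1 of 2 probe sets and Thy1 was 2.17-fold lower. Cd3e, Cd3d and Cd3g lay below the floor on both arrays. The part of these cells in the value of Batf was not tested.

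Atf3 gave deposited intensities of 2422 (wild type) and 3880 (knockout) at 1449363_at, its single probe set. The normalized intensities were 2940 and 3200, a difference of 0.12 (1.09-fold higher), within the probe set SD. It lay 0.11 above the median gene after quantile normalization and 0.14 above it in the deposited values.

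**Figure D2:**
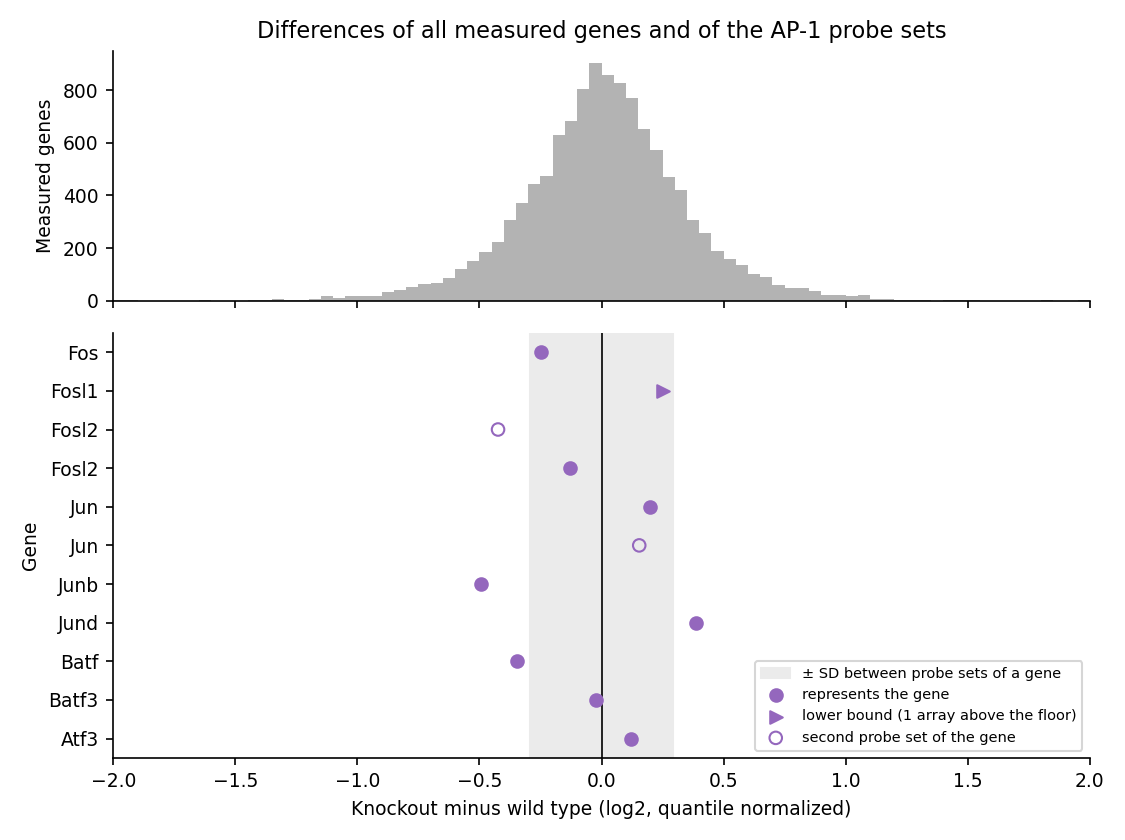
Top, number of measured genes by their difference, with genes beyond 2 log2 units placed in the outermost bins. Bottom, the 11 measured AP-1 probe sets on the same axis (knockout minus wild type, log2), with the SD of 0.29 between probe sets of a gene shaded; filled points represent the gene, open points are second probe sets and the triangle is a lower bound. The members above the floor on both arrays lie from -0.49 (Junb) to 0.39 (Jund).

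Comparing members with each other removes any constant gap in brightness between the arrays. Fosl1, known only as a lower bound, was left out. Among the 28 pairs of the other 8 measured genes, Jund and Junb lay farthest apart, by 0.88 log2 units, and this gap was 0.88 in the deposited values too. It was selected as the largest, so it is a description; the SD between probe sets corresponds to 0.42 for a difference of 2 genes. Jun lay 0.45 above Fos after normalization and 0.46 above it in the deposited values. Jun also lay 0.69 above Junb, and Batf3 lay 0.32 above Batf. Relative to the median gene, Fos, Fosl2, Junb and Batf were lower both after quantile normalization and in the deposited values. Jun, Jund and Atf3 were higher in both, whereas Batf3 changed side (-0.03 and 0.06). The side of Fosl1 in the deposited values is not known, since its value with the floor is a lower bound.

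**Figure D3:**
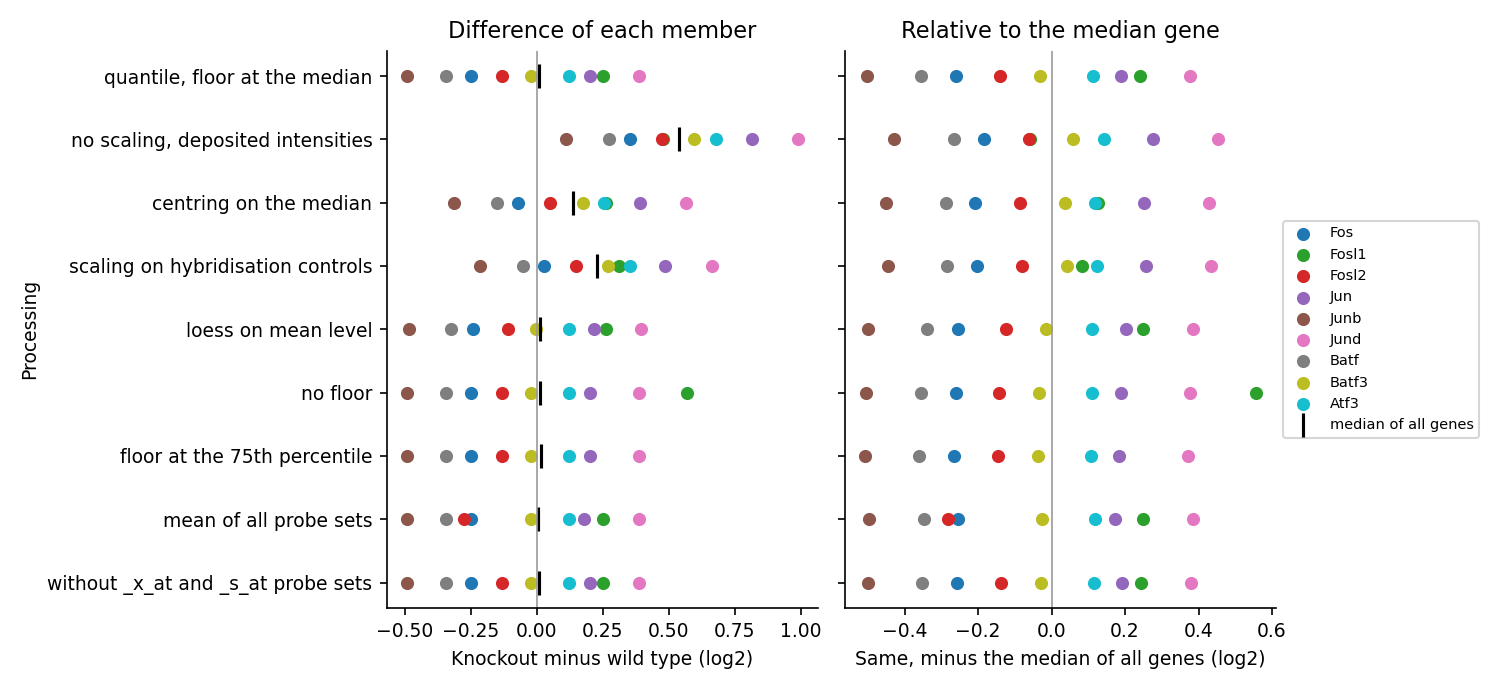
Difference of each measured member (coloured points; knockout minus wild type, log2) under each of 9 ways of processing, as such (left, with the median of all genes as a black tick) and after subtracting that median (right). Without scaling, all 9 members are above 0 but spread around a median gene at 0.54. Relative to the median gene, the plotted value of Junb is lowest in every row. That of Jund is highest in every row except the one without a floor, where Fosl1 is (Fosb is not plotted). With a floor Fosl1, where measured, is a lower bound. The rows are not all separate checks for genes with 1 bright probe set.

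Related genes were described by lists of signalling, partner and target genes. Other bZIP factors were balanced, with 13 of 30 measured genes higher and 17 lower and a median of -0.06. At least 1.5-fold higher were 2 of the 30 (4.57% of all measured genes) and at least 1.5-fold lower 3 (4.1%). Bach1, a repressor that binds Maf partners and AP-1-like sites and has been reported as a target of miR-155, was 2.26-fold higher in the probe set that represents it, but 1 of 2 probe sets was lower. Nfe2l2, the activator of antioxidant genes, was 1.67-fold higher (2816 against 4703, 2 of 2 probe sets). Crem, a cyclic AMP response factor, was 1.62-fold lower with 2 of 2 probe sets, and Nfe2 and Bach2 were 1.57-fold and 1.54-fold lower with 1 probe set each. Of the Irf partners of Batf, Irf8 had normalized intensities of 4551 and 2874 (1.58-fold lower), and both of its probe sets were lower. Irf4 was 1.22-fold lower in the probe set that represents it, but its other probe set was higher by 0.40, and 1 of the 2 genes was lower and 1 higher with averaged probe sets, with scaling on hybridisation controls and in the deposited values.

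The pathway that leads to AP-1 showed no common direction. The 16 measured upstream kinases had a median difference of -0.02, 7 being higher and 9 lower. Rps6ka3, a kinase downstream of ERK that phosphorylates Fos, was 1.62-fold higher with 2 of 2 probe sets. Map3k1, which activates the JNK cascade, was 1.68-fold lower in the probe set that represents it, with 1 of 2 lower. Among 13 transcription factors that act on the Fos and Jun promoters, 7 were higher and 6 lower (median 0.03) and none reached 1.5-fold. Mef2c, counted as lower, exceeded the floor in the wild type alone, which fixed its direction. With averaged probe sets 4 were higher and 9 lower (median -0.05). Elk4, a partner of serum response factor, was highest at 0.40 (2 of 3 probe sets higher) and Stat3 lowest at -0.53 (3 of 4 lower). Of 14 genes for turnover and co-regulation of AP-1, 6 were higher and 8 lower, and Det1, part of a ubiquitin ligase for Jun, was 1.57-fold higher with its 1 probe set.

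Other immediate early genes did not share a direction either, with 9 of 19 higher, 10 lower and a median of -0.02. Egr2 was 1.73-fold higher (1151 against 1987, 2 of 2 probe sets) and Myc 1.58-fold higher, whereas the nuclear receptor gene Nr4a2 was 1.81-fold lower with 4 of 4 probe sets. MAP kinase phosphatases, which switch off the kinases that drive AP-1, had a median difference of -0.23, and 9 of 11 genes were lower (48.5% of all measured genes). Dusp10 and Dusp14 exceeded the floor in the wild type alone, which fixed their direction. Dusp1 and Dusp2 are also among the immediate early genes above. Dusp5, which acts on ERK, was 3.76-fold lower (533 against 142), and Dusp14 was at least 1.76-fold lower. With the floor kept, the median of this list in the deposited values was 0.22, under the 0.54 of the median gene.

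Genes reported to be AP-1 targets in myeloid cells were lower on balance. The median over 19 measured genes was -0.27. Of the 19, 15 were lower (against 48.5% of all measured genes), and 8 were at least 1.5-fold lower (against 4.1%). Il23a, counted as lower, exceeded the floor in the wild type alone, which fixed its direction. Fosl1, itself an AP-1 member and counted as higher, exceeded it in the knockout alone, with the same effect. Il12b, the p40 subunit of interleukins 12 and 23, was 2.41-fold lower with 2 of 2 probe sets, Il6 was 2.34-fold and Ptgs2, which makes prostaglandin precursors, 1.83-fold lower. Vegfa was 2.15-fold lower at 1 probe set, but its other probe set had a difference of -0.06. The median over 16 genes of dendritic cell maturation was -0.62, and 15 were lower, against the same 48.5%. These included Il12b, Cd40 (2.04-fold, 3 of 3 probe sets), Socs2 (1.94-fold, 5 of 6) and Cd80 (1.72-fold, 3 of 3), and Il12b and Cd80 are in both lists. With the floor kept, 8 of the 19 targets and 10 of the 16 maturation genes were lower in the deposited values (7.14% of all measured genes). The medians were 0.16 and -0.10. Markers of other cells differed too. All 6 measured genes of mast cells and basophils were lower (median -0.69), with Hdc 1.86-fold lower, against 48.5% of all measured genes. In the knockout alone 3 of the 6 lay under the floor, which fixed their direction. The summed intensity of the 6 was 3317 against at most 1853. Granulocyte markers were lower in 8 of 11 (median -0.36), against 48.5% of all measured genes. Among them Ltf exceeded the floor in the wild type alone, which fixed its direction. The summed normalized intensity of the 11 was nevertheless 11800 in the wild type and 13920 in the knockout. That of the macrophage markers was 49831 and 50131. The part of these cells in the target and maturation values was not tested. These lists were chosen with earlier results of these arrays known, many other factors control their genes, and the difference between the lists was not tested.

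**Figure D4:**
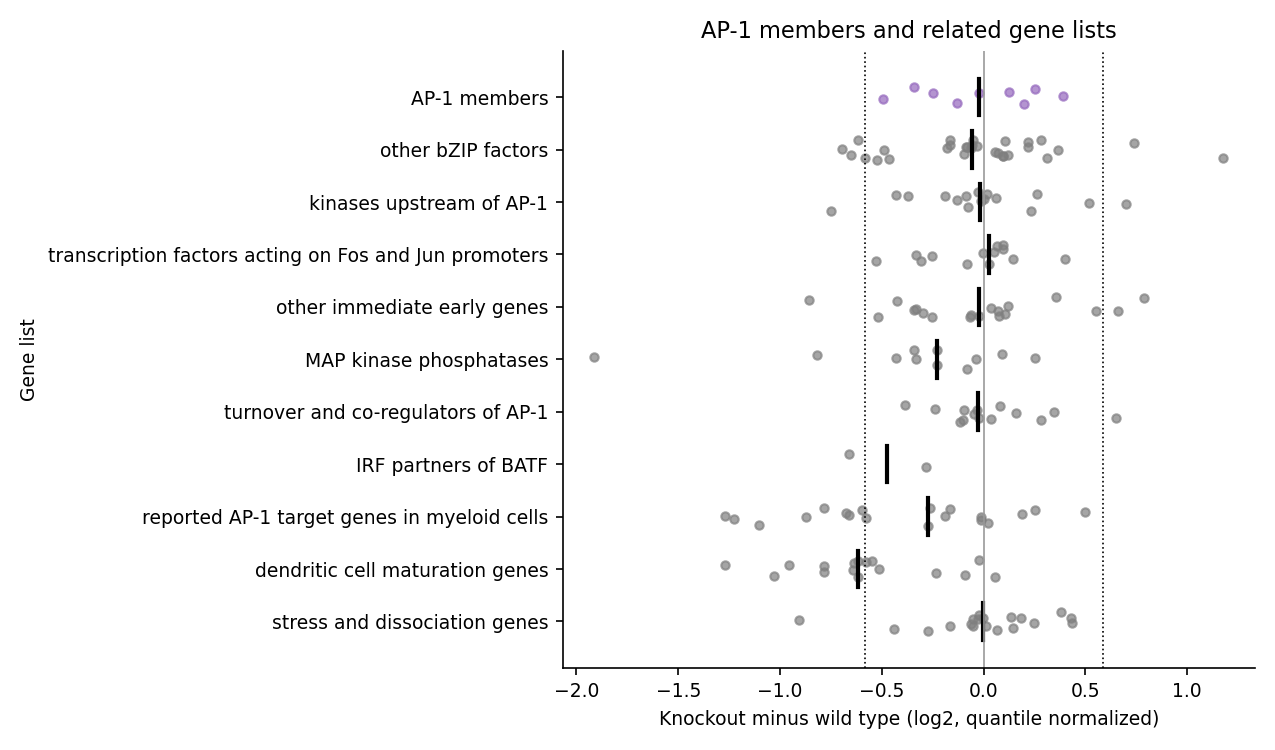
Difference of every measured gene (knockout minus wild type, log2, quantile normalized) in the AP-1 list (purple) and the related lists (grey), with list medians as black bars and 1.5-fold marked by dotted lines. The AP-1 values lie within 1.5-fold (Fosl1 as a lower bound) around a median of -0.02, and the medians of the target and maturation lists are -0.27 and -0.62.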

How the data were processed

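The authors deposited 1 linear signal intensity per probe set and array (45101 probe sets, 2 arrays), per the file headers; the labels' protocols name biotin-labelled cRNA made from 6 ug of RNA. The sources used here name no algorithm behind the intensities and give no detection calls. The 64 control probe sets were removed and the log2 intensities of the other 45037 quantile normalized, since the array medians differed by 34.1% (rule: over 10%). Values under the median were set to it (floor, 67.6). This floor is a choice of this work. Probe sets were named from the platform annotation (34945 name 1 gene, 932 several, 9160 are unnamed here), with symbols updated through gene identifiers (18032 of 18193 genes matched RefSeq, GRCm38.p6). Each gene was represented by its brightest probe set, judged on the mean of the 2 arrays. In each related list, genes at least 1.5-fold different were named, up to 4 per direction, or else the highest and lowest. The members, lists and rules were chosen with earlier results of these data known. The number of arrays limits the precision. The steps were tested on simulated data. Python 3.11.15, numpy 2.4.6, pandas 2.3.3 and statsmodels 0.14.6 (loess, span 0.4) were used, and 8 alternatives were tried.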

Additional observations from a re-analysis of the deposited data

How the results depend on the processing

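Scaling moved the Fos difference, the median and the counts, and the floor moved Fosl1 and the count past 1.5-fold. Without scaling, with the floor kept at 67.5, the Fos difference was 0.35 and the median of the members 0.48, where the median gene lay at 0.54. The number of members lower in the knockout was 0 (7.14% of all measured genes). The number at least 1.5-fold different was 4 (Jun, Jund, Atf3 and Batf3), against 44.0% of all measured genes. Fosl1 is a lower bound here, and its 0.48 is the median. In the deposited values with no floor, the median of the 9 members was 0.60 and Fosl1 was 1.99-fold higher. With centring on the median 3 members were lower, and with scaling on hybridisation controls 2 were lower and 1 (Jund) was at least 1.5-fold different (14.1% of all measured genes); the median genes then lay at 0.14 and 0.23, and 32.3% and 23.3% of all measured genes were lower. Without a floor 1 member was at least 1.5-fold different (Fosb, with a difference of 0.68 between signals below the floor), against 27.3% of all genes, and the Fosl1 difference was 0.57. With a floor at the 75th percentile Fosl1 was not measured. Loess, averaged probe sets and the removal of probe sets ending in _x_at or _s_at left the Fos difference, the median and both counts within the SD between probe sets or within 1.5 times. No paired analysis was possible because each genotype has 1 array.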

Other observations

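Stress and dissociation genes were balanced between the genotypes. The list mixes heat shock genes with genes of other stress responses, such as Asns, Trib3 and Hmox1. Only some of them are induced together with Fos, Jun and Atf3 when cells are handled, and the part of handling was not tested. Of 19 measured genes 9 were higher and 10 lower in the knockout, with a median difference of -0.005. Among all measured genes 51.5% were higher and 48.5% lower. The heat shock genes Hspa1a (0.01), Hspa1b (-0.05) and Hspa8 (0.07) differed by less than the SD between probe sets. Gadd45a, a growth arrest gene, was 1.87-fold lower (503 against 268) with its 1 probe set. It was the only member of the list past 1.5-fold, which 8.67% of all measured genes reached.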
